A study of Bos taurus with 6 samples.

Results

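Transcripts of haemoglobin chains and of the alpha-haemoglobin stabilizing protein were examined in cultured bovine articular chondrocytes. The rows were chosen by name (HBA, HBA1, HBB, HBM, HBQ1 or AHSP), and 5 of the 27607 gene rows carried such a name: HBA, HBM, HBQ1, HBB and AHSP. The symbol HBA1 stood on no row, but 1 row without a symbol had the gene ID that RefSeq gives to HBA1, and another such row had the ID of HBZ. Both are described beside the members and marked as matched by gene ID. The genes were proposed with their levels and their doxycycline difference already seen, so these values are given as a description, with no test. Of the 5 members, 4 reached the mean of 10 normalized counts used as a filter, and HBB did not.

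Deep zone articular chondrocytes from 3 independently collected bovine knees were infected with a lentivirus carrying doxycycline-inducible bovine CREB5 and selected in G418 at 500 µg/ml for 11 days. For 3 days they were then kept on low attachment plates with 2 growth factors, TGFa at 100 ng/ml and TGFb2 at 20 ng/ml. One group had no doxycycline (Dox-, 3 libraries), and the other had doxycycline at 1 µg/ml by the treatment protocol (Dox+, 3 libraries). The cells of both groups carried the inducible CREB5 construct, had been through the same selection and received both growth factors. The labels name no promoter and no clone, and describe no uninfected or freshly isolated cells among these 6 libraries.

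Haemoglobin carries oxygen in red blood cells as a tetramer of alpha-type and beta-type chains, each holding a haem group. The alpha-type genes lie in a cluster of their own, apart from the beta-type genes, and erythroid cells make both types in balance. AHSP binds free alpha chains and keeps them soluble until they pair with a beta chain. Outside the red cell, haemoglobin has been described in several tissues, among them growth plate cartilage, where it was found in bodies within the chondrocytes.

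Reads recovered from the normalized counts ranged from 20063379 (Dox+ 3) to 122366790 (Dox+ 2) per library. A floor of 3 reads, which covers counting error only, was worth between 1.32 and 6.98 normalized counts. CREB5, the induced gene, stood between 308 and 510 normalized counts without doxycycline and between 12413 and 21964 with it, so each library was on the side its label gives. The labelled cell type was checked against 10 chondrocyte markers, all of which passed the filter. COL2A1 (type II collagen) had 41283 ± 20422 normalized counts in Dox- and 14474 ± 7515 in Dox+ cells (SD, n = 3), and SOX9 (a master transcription factor of cartilage) had 5040 ± 2982 and 4465 ± 1582.

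HBA (ENSBTAG00000051412), which encodes the adult alpha chain, was among the genes with the most reads in every library. It had 61645, 61116 and 107969.8 normalized counts in Dox- 1 to 3 and 46179.9, 21379.6 and 41193 in Dox+ 1 to 3. Ranked by normalized count over all gene rows, with no correction for length, HBA was 105th, 143rd and 54th in the Dox- libraries and 164th, 339th and 151st in the Dox+ libraries. It took 0.121%, 0.103% and 0.202% of all normalized counts in Dox- 1 to 3 and 0.0899%, 0.0396% and 0.0883% in Dox+ 1 to 3. Between 17714 and 176564 reads lay behind each value, so the 95% exact Poisson interval was narrow even in the shallowest library, Dox+ 3 (40590 to 41800 normalized counts).

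HBB (ENSBTAG00000037644), the adult beta chain that pairs with the product of HBA, was listed at 0 in 5 of the 6 libraries. Its only read was in Dox+ 2, the deepest library, where it was worth 0.441 normalized counts. Over all 6 libraries 411868 reads were counted on HBA and 1 on HBB, a ratio of 411868 with a 95% exact interval of 73922 to 16268000. The interval was taken on the pooled reads, so it covers counting error only and not the spread between libraries. The ratio is one of reads, not of molecules per length. The other beta-type rows were as empty: HBE1, which stood on 2 rows, HBE2 and HBE4, the embryonic and epsilon-type chains, had 0 reads in all libraries. HBG, named as a gamma chain, had 3 reads in Dox- 3, 3 in Dox+ 2 and 0 in the others. Over these 5 rows, 6 reads were counted among 383508003. The many reads on alpha-type genes were thus accompanied by almost none on beta-type genes.

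**Figure D1:**
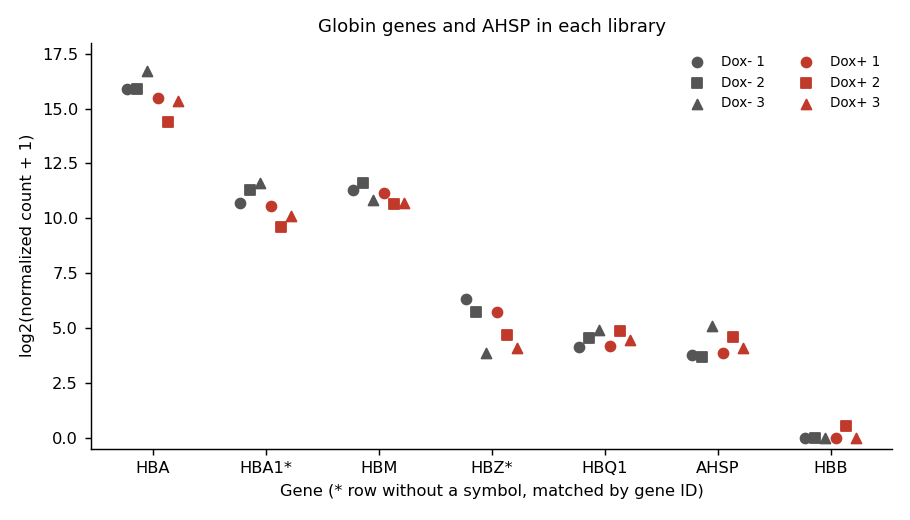
Level of each globin gene and of AHSP in the 6 libraries, as log2(normalized count + 1), with Dox- in grey and Dox+ in red and the marker shape giving the library number. HBA lies far above the other rows in every library, HBM and HBA1 follow, HBZ, HBQ1 and AHSP stand lower still, and HBB is at 0 except for 1 read in Dox+ 2.

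HBM (ENSBTAG00000038757), which encodes the mu chain, an alpha-type globin of the same cluster, was the second member by read count. It had 2477, 3139.9 and 1838 normalized counts in Dox- 1 to 3 and 2298, 1590.1 and 1672 in Dox+ 1 to 3. The row with the gene ID of HBA1 (ENSBTAG00000054844), the duplicate alpha gene next to HBA, had 1669.7, 2531 and 3106 in Dox- 1 to 3 and 1523, 769 and 1114 in Dox+ 1 to 3. The order of these rows was not fixed: HBM was above HBA1 in 5 libraries and below it in Dox- 3. The duplicate alpha genes are close copies, so the division of reads between HBA and HBA1 depends on how the counting placed reads that match both, and is uncertain. HBA had 24.1 to 37.0 times the reads of HBA1 over the 6 libraries. Summed over both rows, the adult alpha genes had 63314, 63647 and 111076 normalized counts in Dox- 1 to 3 and 47703, 22149 and 42307 in Dox+ 1 to 3.

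HBQ1 (ENSBTAG00000016567), the theta chain at the end of the cluster, stood at a low level in every library. It had 16.6, 22.2 and 28.7 normalized counts in Dox- 1 to 3 and 16.9, 28.2 and 20.9 in Dox+ 1 to 3, from 9 to 64 reads. The row with the gene ID of HBZ (ENSBTAG00000038921), the embryonic alpha-type chain, had 77.9, 51.8 and 13.5 in Dox- 1 to 3 and 52.5, 24.7 and 16.3 in Dox+ 1 to 3. Within both groups its level was highest in library 1 and lowest in library 3, unlike HBA, although the exact Poisson intervals of Dox+ 2 and Dox+ 3 overlapped.

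Of the normalized counts on the 5 alpha-type rows (HBZ, HBM, HBA, HBA1 and HBQ1), HBA held between 89.9% (Dox+ 2) and 95.6% (Dox- 3). HBM held 3.76%, 4.70% and 1.63% in Dox- 1 to 3 and 4.59%, 6.68% and 3.80% in Dox+ 1 to 3. The shares were highest for HBM where HBA was lowest and lowest where HBA was highest, since HBM varied less between libraries: its highest value was 1.98 times its lowest, against 5.05 times for HBA. The whole cluster took between 0.0441% (Dox+ 2) and 0.211% (Dox- 3) of all normalized counts.

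AHSP (ENSBTAG00000006457), the chaperone of free alpha chains, was detected in all libraries at a level near that of HBQ1. It had 12.9, 11.8 and 33.6 normalized counts in Dox- 1 to 3 and 13.5, 22.9 and 16.3 in Dox+ 1 to 3, from 7 to 55 reads. The 95% exact Poisson interval, which covers counting error and not the spread between libraries, was 25.3 to 43.8 in Dox- 3, 7.97 to 19.7 in Dox- 1 and 5.11 to 23.3 in Dox- 2. Dox- 3 had the highest normalized count of AHSP as well as of HBA. The lowest value of HBA, in Dox+ 2, was however joined by the second highest value of AHSP. The interval of that AHSP value, 17.1 to 30.1, overlapped those of all other libraries, so its place in the order is uncertain. HBA had between 932 (Dox+ 2) and 5165 (Dox- 2) times the reads of AHSP.

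Adult alpha-globin was lower in the Dox+ libraries. HBA had 76910 ± 26900 normalized counts in Dox- and 36251 ± 13118 in Dox+ cells (SD, n = 3), a difference of -1.11 on the log2(normalized count + 1) scale (SE 0.35 from the limma fit), or 2.15-fold. The lowest Dox- value (61116) lay above the highest Dox+ value (46179.9), so the groups did not overlap. The row matched to HBA1 also separated the groups, at 2436 ± 723 and 1135 ± 377, a log2 difference of -1.11 (SE 0.31). Reads that match both copies may have been placed on either, so this row is not independent of HBA. HBM had 2485 ± 651 and 1853 ± 387, a difference of -0.41 (SE 0.25), and its groups overlapped, since Dox+ 1 lay above Dox- 3. HBQ1 (22.5 ± 6.10 and 22.0 ± 5.74, difference -0.02, SE 0.51) and AHSP (19.4 ± 12.3 and 17.6 ± 4.84, difference -0.01, SE 0.61) had group means closer together than the spread between their replicates. Of the 4 members that passed the filter, 1 thus had groups that did not overlap with Dox+ lower. Among all 13180 genes that passed it, the groups did not overlap in this way for 6.29%. The members were proposed with this comparison known, so nothing is read from that count. In bulk RNA, fewer cells of a type and less RNA per cell cannot be told apart.

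The difference was uneven between same-numbered libraries. HBA was 1.33-fold lower in Dox+ 1 than in Dox- 1, 2.86-fold lower in Dox+ 2 than in Dox- 2 and 2.62-fold lower in Dox+ 3 than in Dox- 3. HBA1 differed least for number 1 as well (1.10-fold, against 3.29-fold and 2.79-fold). For HBM the difference rested on number 2, at 1.97-fold, with 1.08-fold and 1.10-fold for numbers 1 and 3. AHSP was lower in Dox+ for number 3 and higher for numbers 1 and 2. In the authors' deposited table the log2 fold change was -1.02 for HBA, -0.98 for the row matched to HBA1 and -0.32 for HBM. Each was smaller in size than the difference computed here (-1.11, -1.11 and -0.41). How the authors estimated these values was not examined, so they need not be the same measure. Of 13180 genes, 263 had a lower difference than HBA in the values computed here, which places it in the lowest 2.00%. Without Dox+ 2 the HBA difference was -0.76 and without Dox- 3 it was -0.84.

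**Figure D2:**
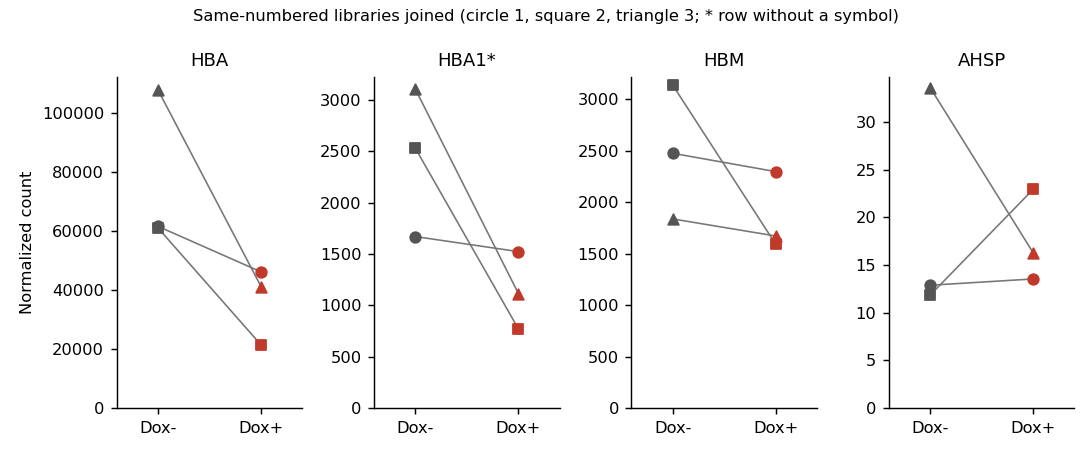
Normalized counts of HBA, the row matched to HBA1, HBM and AHSP in Dox- and Dox+ libraries, each panel on its own axis from 0, with lines joining libraries of the same number. All 3 lines descend for HBA, HBA1 and HBM, least for number 1 in HBA and HBA1, while for AHSP 1 line descends and 2 rise.

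None of the tested genes that flank the alpha-globin cluster was called by limma without the block. In RefSeq's gene order for ARS-UCD2.0, used for order only, the cluster on chromosome 25 reads HBZ, HBM, HBA, HBA1 and HBQ1. On one side lies NPRL3, whose introns hold the distant enhancers of the alpha genes, and on the other LUC7L, an RNA-splicing factor. Of the 10 flanking genes found, 8 passed the filter, with means of 414 to 2313 normalized counts, and in limma 0 were called in either direction (0 also at an unadjusted p under 0.05, by edgeR and by DESeq2). Over all 13180 tested genes, limma called 2.52% higher and 0.357% lower, or 4.86% higher and 1.65% lower with the replicate number as a block, and 10.6% had an unadjusted p under 0.05. NPRL3 had 485 ± 136 in Dox- and 343 ± 81.4 in Dox+ cells (n = 3, limma adjusted p = 0.72), and the DNA glycosylase gene MPG had 1908 ± 316 and 1749 ± 317 (limma adjusted p = 0.91). LUC7L differed in the other direction from HBA, at 1765 ± 534 and 2860.0 ± 1012 (limma adjusted p = 0.51, and 0.042 with the replicate number as a block, with a range of 0.042 to 0.97 over the alternatives). The median log2 difference of the flanking genes was -0.10, against -0.0036 over all tested genes. AHSP lies elsewhere on chromosome 25. Of its direct neighbours, RUSF1 had between 462 and 806 normalized counts, and the olfactory receptor gene OR7A53 was listed at 0 in all libraries.

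**Figure D3:**
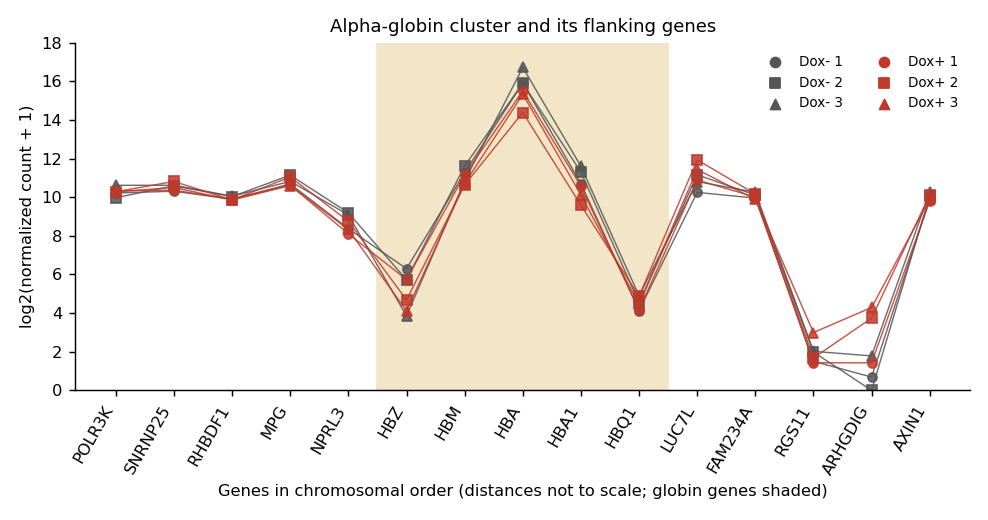
Level as log2(normalized count + 1) of the alpha-globin cluster (shaded) and its flanking genes in chromosomal order, 1 line per library, distances not to scale. HBA rises above its flanking genes in all 6 libraries, while HBZ and HBQ1 at the ends of the cluster lie below NPRL3 and LUC7L.

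Of 16 erythroid markers, 14 were found: 7 had no reads, 2 had few and 5 passed the filter. The 7 with 0 reads in all 6 libraries were the membrane and skeleton genes SLC4A1, EPB42, GYPB, RHAG and KEL, the carbonic anhydrase CA1, and ALAS2, the erythroid enzyme of haem synthesis. SPTB, the erythroid beta spectrin, had 6 reads and HEMGN, an erythroid nuclear protein, had 17 reads over all libraries. The other 5 passed the filter. They include GYPC (862 ± 178 in Dox- and 819 ± 137 in Dox+), SLC25A37 (695 ± 282 and 742 ± 112), EPB41 (582 ± 86.2 and 577 ± 112) and EPOR (181 ± 66.0 and 204 ± 75.3), all n = 3. These encode glycophorin C, the mitochondrial iron importer mitoferrin, protein 4.1 and the erythropoietin receptor, and are made by other cells too. The fifth was the ankyrin gene ANK1, matched by gene ID, at 60.7, 10.4 and 1.83 normalized counts in Dox- 1 to 3 and 22.0, 0.441 and 14.0 in Dox+ 1 to 3. Of its 129 reads, 99 were in Dox- 1. In limma 0 of the 5 were called in either direction (0 at an unadjusted p under 0.05, by edgeR and by DESeq2). The summed level of the list, 1902 to 2610 normalized counts in Dox- and 2343 to 2369.6 in Dox+ libraries, came almost wholly from these 5.

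Of 13 transcription regulators of globin genes in erythroid cells, 7 passed the filter and 2 had no reads. GATA1 and GFI1B, the 2 without reads, were at 0 in all 6 libraries. KLF1, the erythroid factor of globin promoters, named here after its values were seen, stood below the filter, at 7.97, 5.92 and 2.45 normalized counts in Dox- 1 to 3 and 6.77, 12.8 and 0 in Dox+ 1 to 3. These values rest on 0 to 29 reads per library, too few to order the libraries. Of the 7 tested regulators, 0 were called by limma (0 at an unadjusted p under 0.05, by edgeR and by DESeq2), with a median log2 difference of -0.46. The 2 regulators with the most reads were LDB1, a bridging cofactor of erythroid complexes, at 7809 ± 2040 in Dox- and 8027 ± 2266 in Dox+ cells, and ZBTB7A, a repressor of gamma-globin, at 4972 ± 3815 and 3079 ± 686 (n = 3). BCL11A, another repressor of gamma-globin, had 53.8 ± 21.7 and 37.6 ± 24.1, and ZFPM1, the GATA1 cofactor, had 67.1 ± 13.4 and 45.8 ± 14.4. The other 3 were GATA2, at 36.9 ± 47.5 and 53.9 ± 33.1, MYB, at 45.3 ± 40.3 and 29.0 ± 21.9, and NFE2, at 8.79 ± 3.00 and 11.4 ± 12.1 (n = 3), so their group means lay closer together than their spread. GATA2 was nonetheless higher in Dox+ for each of the 3 numbers, with a log2 difference of 1.18 (limma adjusted p = 0.795, and 0.266 with the replicate block). MYB and NFE2 differed in direction between the numbers.

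Markers of other blood and vessel cells were low. Of 13 leukocyte markers 6 passed the filter, and PTPRC, the common leukocyte antigen, had at most 2.33 normalized counts while ITGAM was at 0 throughout. The summed level of the leukocyte list was 235 to 535 in Dox- and 453 to 790.3 in Dox+ libraries, most of it from CD68 and CD14, of lysosomes and of the monocyte surface. Of 6 platelet markers found, GP1BA and GP9 were at 0 in all libraries and the list summed to 34.2 to 130 in Dox- and 71.1 to 172 in Dox+ libraries. The endothelial list summed to 136 to 297 and 158 to 226. In limma 0 genes of these 3 lists were called, with 1 leukocyte gene, LCP1, a leukocyte actin-bundling protein, at an unadjusted p under 0.05. LCP1 had 1.02 ± 1.28 normalized counts in Dox- and 24.4 ± 21.7 in Dox+ cells (n = 3). It was called higher by limma with the replicate block (adjusted p = 0.027, from 0.023 to 0.32 over the alternatives) and by DESeq2, and not by edgeR. TYROBP, a myeloid adaptor below the filter and named here after its values were seen, had 32.5 and 23.7 normalized counts in Dox- 1 and Dox+ 1. It had 0 in the other 4 libraries.

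**Figure D4:**
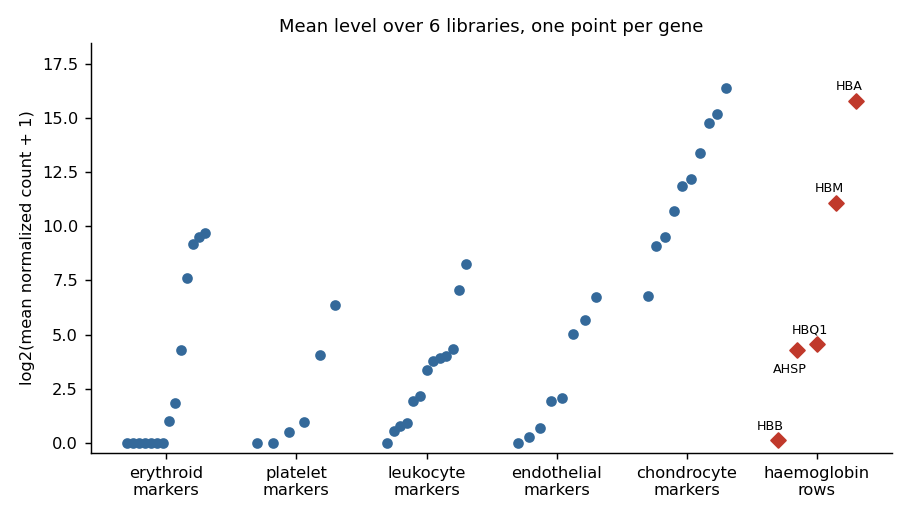
Mean level over the 6 libraries, as log2(mean normalized count + 1), with 1 point per gene, for markers of erythroid cells, platelets, leukocytes, endothelium and chondrocytes and for the 5 haemoglobin rows (red diamonds). Of the erythroid markers 7 lie at 0, while the chondrocyte markers span 107 to 85832 normalized counts and HBA stands at 56580.5.

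Among globins of other tissues, only CYGB and MB had more than a few reads. CYGB, which encodes the cytoglobin of fibroblast-like cells, had 310 (Dox- 1), 908 (Dox- 2) and 600 (Dox- 3) normalized counts against 139, 364 and 193 in Dox+ 1 to 3. It was lower in Dox+ for each of the 3 numbers, 2.58-fold on average, but did not pass the test without the block (limma adjusted p = 0.26). In limma with the replicate block it was called lower (adjusted p = 0.0053, from 0.0053 to 0.71 over the alternatives). Within each group its lowest value was in library 1 and its highest in library 2, an order that HBA did not have. MB, the myoglobin of muscle, had 104 ± 47.2 in Dox- and 117 ± 51.2 in Dox+ cells (n = 3, limma adjusted p = 0.95), and NGB, the neuronal globin, had 1 read in all. Of 12 globins in this list, 8 were found on 9 rows and 3 were tested, CYGB, MB and HBZ (limma adjusted p = 0.91). Of these, 0 were called by limma, 1 had an unadjusted p under 0.05, and edgeR and DESeq2 called 0.

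The enzymes and carriers of haem synthesis were present throughout. All 13 genes of this list passed the filter, with means of 288 to 4944 normalized counts, and their median log2 difference was 0.01. ALAS1, the first enzyme of the pathway in non-erythroid cells, had 2340.4 ± 185 in Dox- and 2277 ± 409 in Dox+ cells, in contrast to the 0 reads of its erythroid relative ALAS2. TMEM14C, a mitochondrial porphyrin carrier, had 4907 ± 326 and 4981 ± 707, and ABCB6, a porphyrin transporter, had 1865 ± 332 and 1735 ± 151. In limma 0 of the 13 were called (1 at an unadjusted p under 0.05, 0 by edgeR and by DESeq2). That gene was FECH, higher in Dox+, at 823 ± 74.0 in Dox- and 1157 ± 97.1 in Dox+ cells (limma adjusted p = 0.35).

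Genes of haem breakdown and haemoglobin clearance gave 0 calls in limma among 7 tested (2 at an unadjusted p under 0.05, 0 by edgeR and by DESeq2). These 2 were LRP1, lower in Dox+, and FLVCR1, higher in Dox+. FLVCR1 had 1227 ± 199 in Dox- and 1995 ± 520 in Dox+ cells (n = 3, limma adjusted p = 0.29). HMOX1, the inducible haem oxygenase, had 46111, 29966 and 21721 normalized counts in Dox- 1 to 3 and 39729, 11863 and 14390 in Dox+ 1 to 3. Its highest value in each group was thus in library 1. In Dox- it was lowest in library 3, where HBA was highest. In Dox+ it had the order of HBA, highest in library 1 and lowest in library 2. HMOX1 was lower in Dox+ for each of the 3 numbers (limma adjusted p = 0.72). LRP1, a large endocytic receptor that takes up haem bound to hemopexin among many ligands, had 137636 ± 17854 and 89416 ± 12662 (limma adjusted p = 0.32). HP, which encodes haptoglobin, and CD163, the haemoglobin scavenger receptor of macrophages, had 8 reads and 1 read in all.

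Among genes of iron handling, SLC40A1, which encodes the iron exporter ferroportin, fell in Dox+ cells. It had 2542, 2600.1 and 1794 normalized counts in Dox- 1 to 3 and 811, 1119 and 858 in Dox+ 1 to 3, so the groups did not overlap. The fall was 2.48-fold (log2 difference -1.31, limma adjusted p = 0.016, from 2.09e-05 to 0.10 over the alternatives) and it was seen for each of the 3 numbers. The limma call was lost without Dox- 2 (adjusted p = 0.074), without Dox+ 1 (0.071) and without Dox+ 3 (0.10). In limma without the block the other 13 of 14 tested genes did not pass (2 of the 14 at an unadjusted p under 0.05). edgeR called 1 gene of the list lower and DESeq2 2, SLC40A1 and CP. FTH1 and FTL, the ferritin chains that store iron, had 163806 ± 77290 and 106787 ± 9717 in Dox- and 226874 ± 99679 and 80773 ± 16463 in Dox+ cells (n = 3, limma adjusted p = 0.83 and 0.66). CP, the copper oxidase ceruloplasmin that works with ferroportin, was 245 ± 153 and 51.4 ± 42.7 (limma adjusted p = 0.14) and was called lower with the replicate block (adjusted p = 0.0050, from 0.0050 to 0.47 over the alternatives). The list's median log2 difference was -0.23.

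Cells answer low oxygen, the usual setting of cartilage, through HIF1A and its relative EPAS1. All 15 genes of the hypoxia list were tested and 0 were called by limma and by edgeR (1 at an unadjusted p under 0.05, 1 by DESeq2), with a median log2 difference of -0.37. The gene DESeq2 called was EGLN3, a HIF hydroxylase, at 10718 ± 2899 in Dox- and 3666 ± 2298 in Dox+ cells (n = 3, limma adjusted p = 0.071, and 0.0012 with the replicate block, from 0.0012 to 0.31 over the alternatives). LDHA, lactate dehydrogenase, had 120329 ± 5330 and 92171 ± 29150 (limma adjusted p = 0.71), and HIF1A had 83636 ± 32716 and 66455 ± 10882 (limma adjusted p = 0.89).

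Chondrocyte markers were called in both directions. Of 10 tested, ACAN (aggrecan, 4.78-fold, limma adjusted p = 0.034) and COL9A1 (a type IX collagen chain, 5.60-fold, limma adjusted p = 0.0066) fell, MATN3 (matrilin 3, 16.2-fold, limma adjusted p = 0.0068) rose and 7 did not pass in limma without the block, with a median log2 difference of -1.53 over the list. edgeR also called 1 higher and 2 lower, and DESeq2 called 1 higher and 6 lower. With the replicate block 1 rose and 5 fell, the added ones being COL2A1, COL11A2 and SNORC. Summed over the list, the Dox- libraries had 156739, 310558 and 245724 normalized counts and the Dox+ libraries 104207, 122045 and 105107, so Dox- 3, the highest for HBA, was not the highest for these markers. The limma calls of ACAN and MATN3 were lost without Dox+ 3 (adjusted p = 0.17 and 0.061), and that of ACAN also without Dox- 2 (0.12), Dox- 3 (0.14) and Dox+ 1 (0.10). Over the union of the 12 lists, 1 gene was higher and 3 were lower among 93 tested. Over all 13180 tested genes, limma without the block called 2.52% higher and 0.357% lower. The lists were chosen with earlier results known, so nothing is read from these counts.

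**Figure D5:**
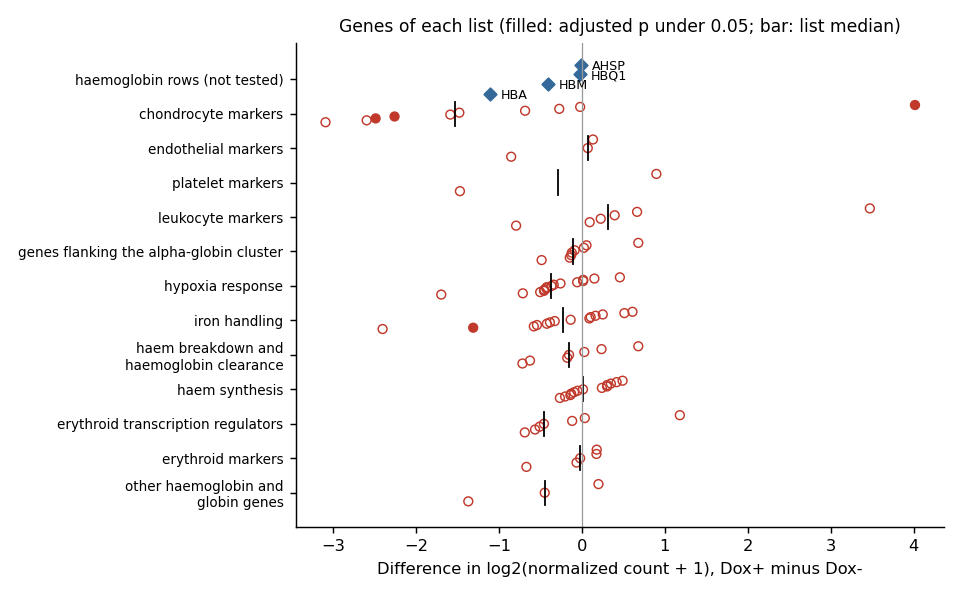
Difference in log2(normalized count + 1), Dox+ minus Dox-, for the tested genes of each list (circles, filled where the limma adjusted p was under 0.05) with the list's median as a bar, and for the 4 haemoglobin rows above the filter (blue diamonds, not tested). HBA at -1.11 lies to the left of all haem synthesis and erythroid genes, and the filled circles are SLC40A1, ACAN, COL9A1 and MATN3.

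The likeness of each member to all other tested genes with a symbol was measured as the root mean square distance between their log2(normalized count + 1) values, centred over the 6 libraries. The genes nearest to HBA were NEDD9, a scaffold protein of focal adhesions (distance 0.13), VSTM2L (0.19) and GINS4, a subunit of the replicative helicase complex (0.22), against a root mean square of 0.71 for HBA about its own mean. VSTM2L stood at only 9.27 to 48.9 normalized counts, so counting error bears on its distance. NEDD9 had 1551, 1343 and 2864 normalized counts in Dox- 1 to 3 and 1097, 595 and 1165 in Dox+ 1 to 3, with the highest and lowest values in the same libraries as HBA. The unnamed row of HBA1 came next, at 0.23. HBM was much less like HBA, at 0.65, with 2372 other tested genes nearer. HBQ1 (0.78), AHSP (0.80) and HBZ (1.17) were further away still.

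The other members had different nearest genes. HBM was nearest to DZANK1 (0.064), SAP30, a subunit of the Sin3 repressor complex (0.086), and IER3, an immediate early gene (0.11). HBQ1 was nearest to LPCAT3, a lysophospholipid acyltransferase (0.038), FDPS, an enzyme of isoprenoid synthesis (0.050), and RNF214 (0.053), and AHSP to THOC2, of the mRNA export complex (0.12), WFIKKN1 (0.13) and SEMA6C (0.14). With 6 libraries that share 3 numbers and with few reads on HBQ1 and AHSP, these distances describe the libraries and carry no test.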

How the data were processed

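The 6 libraries (KAPA mRNA HyperPrep, per the labels' protocols) were grouped by their titles. The deposited signal values are counts that the authors divided by 1 size factor per library, and 100% of values above 0 were whole reads within 0.01 read. The authors' deposited comparison table holds log2 fold changes and p-values; its p-values were not used. The submitters' processing notes list the builds bosTau9 and ARS-UCD1.2 and the tools Salmon, STAR 2.5.2b, DESeq2, MultiQC 1.2 and FastQC 0.11.3, with no role or order. Without a strand setting (not given in the sources used here), overlapping and antisense genes cannot be told apart.

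Differences were taken on log2(normalized count + 1) and tested with limma 3.58.1 (R 4.3.3; trend, two-sided) in the 13180 genes whose mean reached 10; p-values were adjusted over all of them by the method of Benjamini and Hochberg, with a threshold of 0.05. edgeR 4.0.16 and DESeq2 1.42.0 were run on the recovered reads as alternatives. The limma step was run on simulated data with large planted changes and no effect of the replicate number. That run does not show how the step performs on smaller differences or on paired libraries. The 12 lists were other globins, erythroid markers, erythroid regulators, haem synthesis, haem breakdown, iron handling, hypoxia response, flanking genes, and markers of leukocytes, platelets, endothelium and chondrocytes. Some erythroid markers outside the list described are not reported here. The members and lists were chosen with earlier results of these data known. Named were all members, list genes that were called (up to 6) or had the highest levels (up to 4), the 3 genes nearest to each member and the members' neighbours. Further list genes were named after their values were seen. Among them were genes with few or no reads, genes with a low unadjusted p and genes called only by an alternative.

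Libraries with the same number deviated together from their group means (correlations over genes of 0.65, 0.44 and 0.21 for numbers 1, 2 and 3). Libraries of unlike number had correlations of -0.59 to 0.18. The numbers were therefore taken to pair the libraries, although Dox- 3 with Dox+ 2 (0.18) came close to number 3. That the numbers stand for knees is not stated. Libraries of a group differed by more than sampling noise (chi-square per degree of freedom 57.9 to 435). RefSeq's table of ARS-UCD2.0, another build, gave names and gene order only. No sequences were used.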

Additional observations from a re-analysis of the deposited data

How the results depend on the processing

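The HBA difference kept its sign under all 14 alternatives run for it and lay between -1.32 and -0.76. The AHSP difference lay between -0.27 and 0.45, so its sign was not fixed. Over all genes, 332 were called higher and 47 lower. With the replicate block limma called 640 and 218, which hold all 379 calls made without it, edgeR with the replicate block called 591 and 190, and DESeq2 called 542 and 159. With 1 library left out, 138 to 364 were higher and 9 to 72 lower. Over the lists, 1 gene was higher and 3 were lower. This became 3 and 9 with the replicate block in limma and in edgeR, 2 and 9 in DESeq2, and 0 to 1 and 1 to 6 with 1 library left out. The block added the calls of CYGB, CP, EGLN3, LUC7L, LCP1, COL2A1, COL11A2 and SNORC, and removed none. The cause of these changes was not tested. Depth limits HBQ1, AHSP and HBB, which rest on 0 to 64 reads per library. Each group had 3 libraries. The p-values without the block rest on the spread between libraries of a group and ignore the pairing. Those with the block rest on the spread left after differences between the numbers are taken out.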
